A study of Homo sapiens with 2 samples.

Results

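Binding of ZFX, an X-linked transcription factor of the zinc finger class, was examined at 4 genes, MYC, MYCN, MYCL and MAX, in DAOY cells. DAOY is an established human medulloblastoma line, grown in medium with fetal bovine serum. The series held 2 samples. In the first, sheared DAOY chromatin was precipitated with a rabbit polyclonal antibody against ZFX and sequenced (ChIP-seq), and in the second the same kind of chromatin was sequenced without precipitation as input. The peak list belongs to the single ZFX library. The input is not used here. The 4 genes and the windows were chosen with earlier results of these data known. A gene was said to have a peak when any base of a peak lay within 5 kb of its transcription start site on the hg19 build. For MYC, peaks up to 500 kb away were taken as well. Of the 14471 peaks in the list, 1 lay within 5 kb of any of the 4 start sites and 8 lay within 500 kb of that of MYC.

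MYC, MYCN and MYCL encode transcription factors of the basic helix-loop-helix leucine zipper class, which drive growth and division. Each binds DNA as a dimer with MAX, a smaller partner of the same class that lacks an activation domain and is made in most cells. The pair recognises the E-box, CACGTG. MYC and MYCN are each amplified in subsets of medulloblastoma, and MYCN is a target of Hedgehog signalling in the granule neuron precursors of the cerebellum.

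MYCN and MYCL had no peak within 5 kb, and any relation of peaks to CG content was not tested. The reference promoters of these genes are shown, and they differ widely in CG content. Both were taken from RefSeq on GRCh38.p14, 5′ to 3′ along the gene, over the 250 bases before the annotated start, with every CG dinucleotide in capitals. MYCN lies at chr2:15940300-15940549 on the plus strand and MYCL at chr1:39901918-39902167 on the minus strand.
MYCN: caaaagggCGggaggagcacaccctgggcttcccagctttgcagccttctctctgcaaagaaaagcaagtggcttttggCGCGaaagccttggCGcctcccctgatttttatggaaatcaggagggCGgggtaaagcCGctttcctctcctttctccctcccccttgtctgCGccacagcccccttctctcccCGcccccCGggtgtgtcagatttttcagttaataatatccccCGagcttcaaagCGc
MYCL: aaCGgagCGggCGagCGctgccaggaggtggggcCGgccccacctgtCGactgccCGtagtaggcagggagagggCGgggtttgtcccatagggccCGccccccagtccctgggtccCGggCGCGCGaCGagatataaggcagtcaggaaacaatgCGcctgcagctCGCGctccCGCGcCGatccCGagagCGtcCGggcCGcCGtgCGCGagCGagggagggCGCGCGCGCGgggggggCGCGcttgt

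Over these 250 bases MYCN held 11 CG dinucleotides and MYCL held 35. In the RefSeq windows of 300 bases, which add the first 50 of the transcript, MYCN had 14, equal to the median of all 35116 windows. MYCL had 43, a number reached or passed by 4.98% of windows. MAX had 2 windows in this table, each with 21 CG dinucleotides, a number reached or passed by 39.5% of windows. Neither window of MAX begins at the outermost start of the gene in the RefSeq gene table, so no sequence of MAX is printed. MYC had no window in this table. Some genes had several windows, which were counted separately. The motif AGGCCT, the core often given for ZFX, reads the same on both strands and was in none of the windows of MYCN, MYCL and MAX, against 10.9% of all windows. The E-box CACGTG, also the same on both strands, was in none of them, against 7.26% of all windows. This says only that these letters are not in these windows. The peak positions are on hg19 and were not carried over to GRCh38.

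MAX was the 1 gene of the 4 with a peak within 5 kb. The peak lay on chromosome 14 from 65568874 to 65569148, between 79 and 353 bp downstream of the start site in the direction of transcription. It was 275 bp wide and scored 53.84, where the list ran from 50 to 3233 with a median of 108.9 (the score is the authors' own and has no stated unit). Only 8.60% of all peaks scored as low or lower, and 11.4% were as narrow or narrower, so the peak at MAX was among the weakest that the list holds. On GRCh38 MAX overlaps FNTB, the read-through gene CHURC1-FNTB, the noncoding MAX-AS1 and the microRNA gene MIR4706, and the peak was not assigned to one of them over the other.

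MYC, MYCN and MYCL had no peak within 5 kb. The count of 1 gene in 4 stands beside 4.14% of 10 kb windows that overlapped a peak, counted over all chromosomes between their outermost peaks. By chromosome, 2.39% of windows on chromosome 8 (MYC), 3.63% on chromosome 2 (MYCN), 5.60% on chromosome 1 (MYCL) and 5.98% on chromosome 14 (MAX) overlapped a peak. These windows are not start sites, and the share of all promoters with a peak was not analysed here, so 1 in 4 cannot be read as high or low for genes. With the list limited to peaks above the median score, no gene of the 4 had a peak, against 2.40% of windows. Within the 5 kb limit the only peak began 79 bp from its start site, and the first one outside it lay 18.5 kb away, at MYCL. Nothing was replicated, since the list comes from 1 library, and no test was made. The depth of sequencing is unknown, and a weaker site below the lowest listed score would not have been seen.

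**Figure D1:**
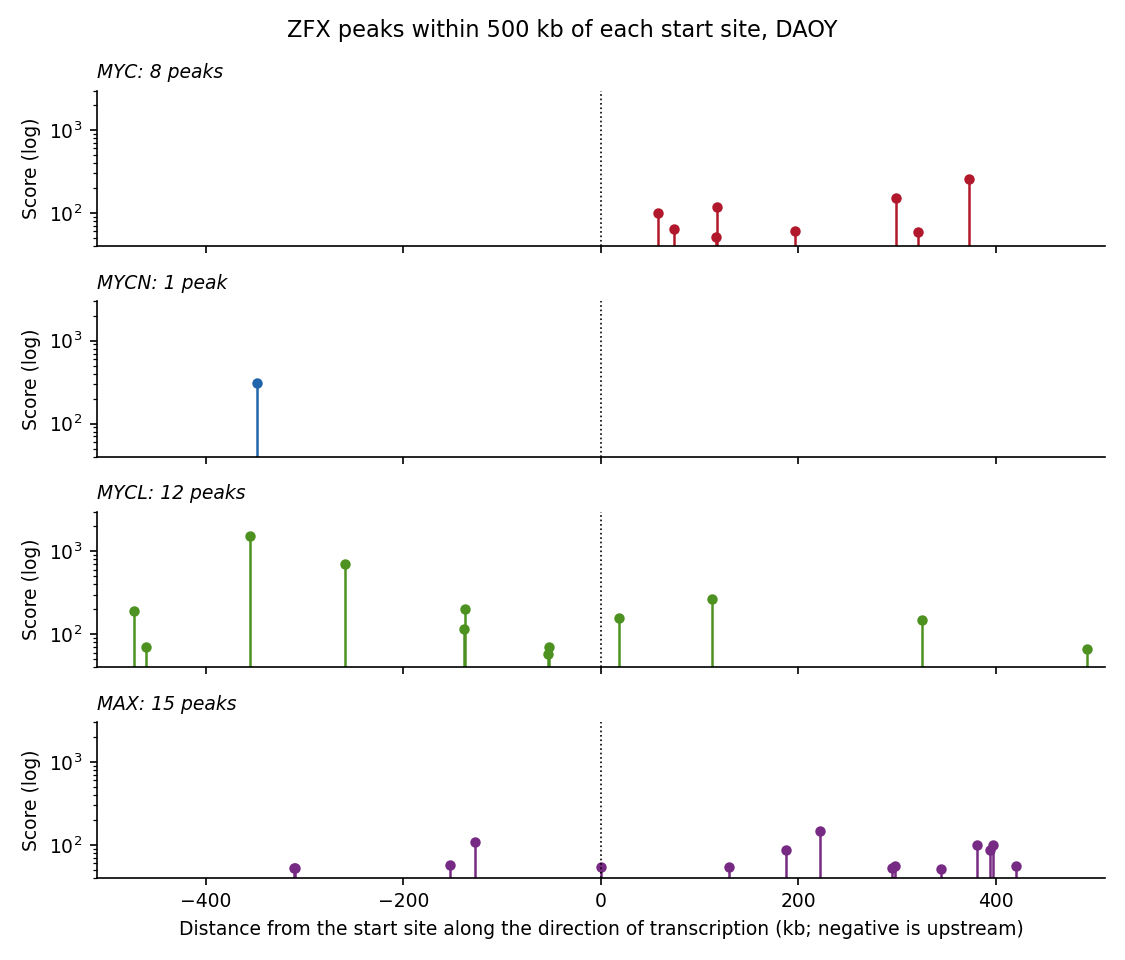
Peaks within 500 kb of the start sites of MYC, MYCN, MYCL and MAX in the ZFX library. The horizontal axis gives the distance in kb along the direction of transcription, and the vertical axis gives the authors' score on a log scale, 1 stem per peak. The 8 peaks of MYC all stand downstream, MYCN has a single peak far upstream, and the peak at the start of MAX scores 53.84.

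Around MYC, the family member most widely active in dividing cells, all 8 peaks within 500 kb lay downstream of the gene and none upstream. The nearest one lay 58.0 kb downstream, at 128806355 to 128806793 on chromosome 8, was 439 bp wide and scored 101.03. It was followed at 73.9 kb by a peak of 327 bp with a score of 63.85 (128822215 to 128822541). These 2 peaks, the closest to MYC, both scored below the median of the list.

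A close pair came next. The first peak of the pair (128865015 to 128865275), 117 kb downstream, scored 50.96 over 261 bp, and only 2.80% of the list scored as low or lower. The second, 118 kb downstream (128866140 to 128866680), scored 119.48 over 541 bp. The 2 peaks were separated by 864 bp, so the pair held a weak and a middling peak side by side.

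The remaining 4 peaks alternated between weak and stronger ones with distance. At 196 kb a peak scored 60.71 over 348 bp (128944426 to 128944773), and at 299 kb another scored 151.62 over 449 bp (129047274 to 129047722). At 321 kb a peak of 213 bp scored 58.34 (129069730 to 129069942), and only 1.82% of the list was as narrow or narrower. The farthest, at 373 kb (129121025 to 129121821), was both the widest at 797 bp and the highest at 260.4, at or above 79.1% of the list. The median score of the 8 peaks was 82.44, and 3 of 8 scored above the median of the list, against 49.9% of all peaks.

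The 8 peaks formed an isolated run of 315 kb in which they covered 3.38 kb. On the upstream side of MYC the next peak lay 1.77 Mb away, at 126980908 to 126981390, with a score of 400.12. The stretch without a peak that contains MYC was 1.82 Mb long, the 19th longest of 393 gaps on chromosome 8. Long gaps take up more of a chromosome than short ones, so a rank among gaps is not a share of positions. The share of positions in gaps this long was not computed. On the far side of the run the next peak was at 130951705 to 130952037 with a score of 70.69, after another gap of 1.83 Mb, the 18th longest. On both sides, therefore, the run was bordered by gaps of nearly the same length.

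Beside other positions on chromosome 8, which include stretches without genes, the number of peaks near MYC was high and their arrangement uneven. No comparison with other start sites on this chromosome was made. For positions every 10 kb along chromosome 8, 8.61% had 8 or more peaks within 500 kb, and the median was 1. Of the positions on chromosome 8 with 8 or more peaks, 7.06% had all of their peaks on 1 side, as MYC did. Over all chromosomes 21.6% of positions had 8 or more peaks, and 5.16% of those had them on 1 side. The comparison of sides was chosen after the layout at MYC had been seen. In the RefSeq gene order the first gene beyond MYC is PVT1, a long noncoding RNA gene that hosts several microRNAs, and the next protein-coding gene is GSDMC. On the upstream side lie the noncoding CASC11 and then, as the first protein-coding gene, POU5F1B. Which of the peaks lie in PVT1 was not analysed here, since gene positions were on another build, so none can be tied to MYC.

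MYCN, the member expressed in neural progenitors, had the emptiest surroundings. A single peak lay within 500 kb, 348 kb upstream (15731767 to 15732642 on chromosome 2), where it scored 304.85 over 876 bp. Its score was at or above that of 82.5% of the list. A second peak upstream, 580 kb away, scored only 53.93. Downstream no peak was listed for 1.85 Mb, up to a peak at 17935157 to 17936086 with a score of 331.88. The gap that contains MYCN was 2.20 Mb long and ranked 21st of 1034 on its chromosome. As for MYC, this rank is among gaps and is not a share of positions. Of positions on chromosome 2, 75.2% had at least 1 peak within 500 kb, with a median of 3. Of all positions between the outermost peaks of the chromosomes, 33.9% were as far from a peak as MYCN or farther. The distance of MYCN to its nearest peak was thus longer than the median of 167 kb over all positions. In RefSeq order the antisense gene MYCNOS overlaps MYCN, and the nearest protein-coding genes are DDX1, an RNA helicase gene often amplified with MYCN, and CYRIA.

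MYCL, first found amplified in small cell lung cancer, had 12 peaks within 500 kb, 8 upstream and 4 downstream. The nearest, 18.5 kb downstream (40348755 to 40349212 on chromosome 1), scored 157.27 over 458 bp, at or above 64.3% of the list. On the upstream side a pair of weak peaks began 52.6 kb away, with scores of 70.64 and 58.53. A second close pair lay upstream at 138 kb, with scores of 201.69 and 115.92 and only 125 bp between the peaks. The strongest peaks around any of the 4 start sites were 2 that lay upstream of that of MYCL. The first, 259 kb away (40626420 to 40627739), scored 699.89 over 1320 bp. The second, 355 kb away (40723118 to 40724418), scored 1530.27 over 1301 bp, at or above 99.2% of the list. In all, 8 of the 12 peaks scored above the median of the list. On chromosome 1, 19.1% of positions had 12 or more peaks within 500 kb, with a median of 5. The RefSeq neighbours are TRIT1, which encodes a tRNA-modifying enzyme, downstream of MYCL, and MFSD2A, a lipid transporter gene, upstream of it. Whether the peaks lie in or at the start of these or other genes was not analysed here, so none can be tied to MYCL.

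MAX had the most peaks within 500 kb, 15, of which 11 were downstream and 4 upstream, and most were weak. Their scores ran from 50.82 to 148.22 with a median of 56.23, and 9 of 15 scored below 60, against 18.3% of the list. A single peak exceeded the median of the list, 222 kb downstream (65346732 to 65347395), with a score of 148.22 over 664 bp. Apart from the peak at the start site, none lay within 100 kb. The nearest others lay 127 kb upstream (65696440 to 65697238, score 108.54) and 130 kb downstream (65439376 to 65439646, score 54.57). On chromosome 14, 15.4% of positions had 15 or more peaks within 500 kb, with a median of 6.

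**Figure D2:**
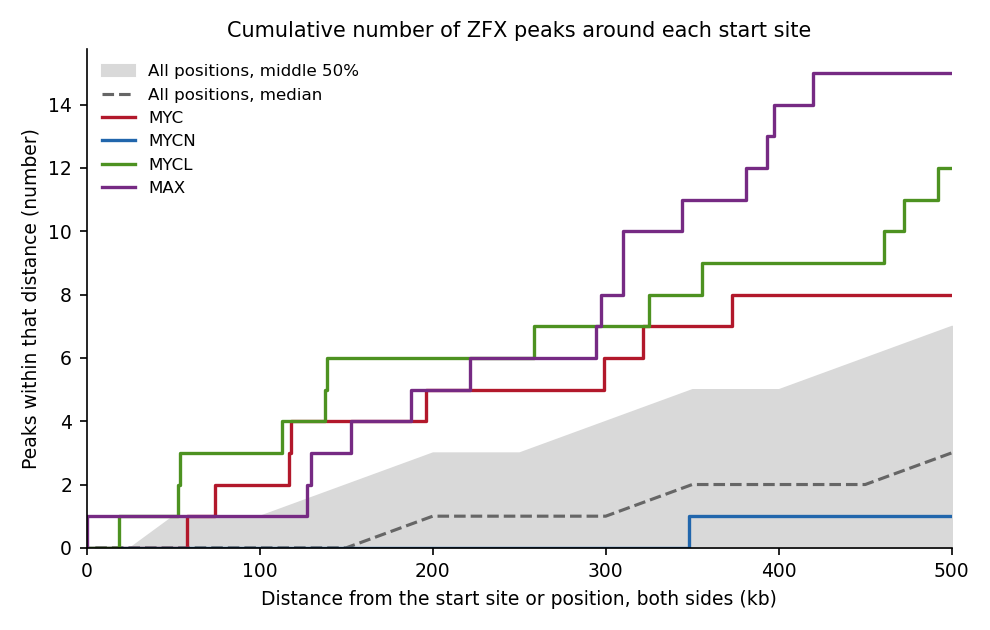
Cumulative number of peaks (vertical axis) within a given distance in kb on both sides (horizontal axis) of the 4 start sites, 1 line per gene. The grey band and the dashed line give the middle 50% and the median over positions every 10 kb on all chromosomes. At 500 kb MAX reaches 15 peaks, MYCL 12 and MYC 8, above the median of 3 for all positions, and MYCN stands at 1.

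By the nearest peak the order of the genes was MAX with 79 bp, MYCL with 18.5 kb, MYC with 58.0 kb and MYCN with 348 kb, the same as by the number of peaks within 500 kb. Within 100 kb the order was another one, with 3 peaks at MYCL, 2 at MYC, 1 at MAX and 0 at MYCN. Of all positions, 99.6% were as far from a peak as MAX or farther, 87.5% as far as MYCL and 71.2% as far as MYC. These positions include stretches without genes, and no comparison with other start sites was made, so these shares do not set the 4 genes apart from other genes. By the highest score within 500 kb the order was MYCL with 1530.27, MYCN with 304.85, MYC with 260.4 and MAX with 148.22. The gene with a peak at its start site thus had the lowest maximum nearby. Scores of single peaks have no error here, so neighbours in this order, such as MYCN and MYC, cannot be said to differ.

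Neighbouring peaks share their part of the chromosome and are not independent, and the number of copies of each region in DAOY was not measured here.

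**Figure D3:**
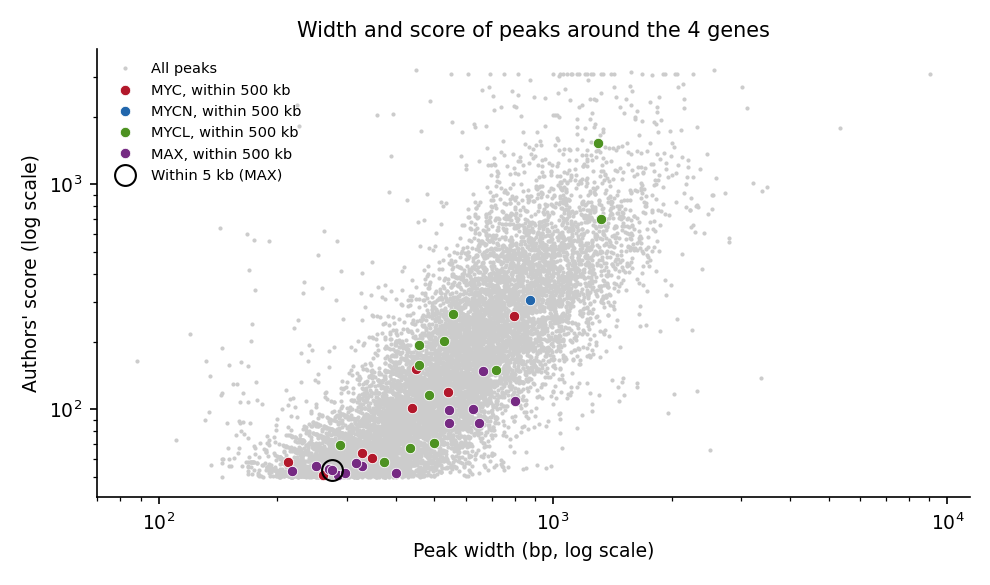
Width in bp (horizontal axis, log scale) and the authors' score (vertical axis, log scale) of all 14471 peaks in grey and of the peaks within 500 kb of the 4 start sites in colour, with the peak at the start of MAX circled. Peaks around MAX stay at scores of 148.22 or less, whereas 2 peaks upstream of MYCL, at 699.89 and 1530.27, score at or above 95.7% and 99.2% of the list.

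Other genes of the network, such as those of the MXD proteins, MNT, MGA and MLX, were not analysed here because their start sites on hg19 were not at hand.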

How the data were processed

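ZFX ChIP-seq was analysed for 1 library from DAOY cells. The labels give its antibody, and the input library was not used. Bowtie2 2.0.0 and hg19 stand in the submitters' processing notes with no role, and hg19 was taken as the build of the positions. Peaks are named after the caller MACS in the deposited list. Its version, threshold and control were not given in the sources used here. The score of each peak was deposited by the authors without a stated unit and was used to describe and rank peaks within the list. The numbers in the peak names run without a gap to 14471. Starts were taken as counted from 0 and are printed counted from 1.

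The start sites were fixed on hg19 together with the choice of genes, and the genes, windows and alternatives were chosen with earlier results of these data known. Every peak within 5 kb, and the nearest on each side, was named, and for MYC every peak within 500 kb. Distances run from the start site to the nearest edge of a peak. For comparison, windows of 10 kb were laid between the outermost peaks of each chromosome, assembly gaps included, and counts within 500 kb were taken at positions every 10 kb at least 500 kb inside those peaks. Promoter windows (250 bases before and 50 after a start) and gene order came from RefSeq on GRCh38.p14. Promoter windows were matched for 3 of the 4 genes, and MYC was the gene without one. Counting was checked on simulated peaks. Python 3.11.15, numpy 2.4.6, pandas 2.3.3 and matplotlib 3.10.9 were used.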

Additional observations from a re-analysis of the deposited data

How the results depend on the processing

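Of 33 alternatives for 5 counts, 29 left the count equal or within 1.5 times its value. For MYC, MYCN and MYCL the count within 5 kb was 0. Narrower windows, smaller lists, midpoints and joining could therefore only return 0 again for them, so such agreement is no support. MYC and MYCN had 0 peaks in each of the windows from 1 to 50 kb on each side, whereas MYCL had 1 at 50 kb, a window that reaches its peak at 18.5 kb. MAX had 0 peaks among those above the median score. Around MYC, 5 peaks lay within 250 kb, 8 within 1 Mb, and 3 of those within 500 kb scored above the median of the list. Joining peaks at most 1 kb apart turned the 8 peaks into 7. Fewer peaks follow from the construction of each narrower window or smaller list. No paired analysis was possible because each sample has 1 library and only the ZFX library was analysed. Depth is unknown, so missed weak sites cannot be counted.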
